A study of Mus musculus with 24 samples.

Results

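The integrated stress response genes described here are 34 genes taken from a list of ATF4 and CHOP stress genes, amino acid enzymes and transporters, and cytosolic tRNA synthetases. They were matched by symbol to the Ensembl identifiers of the count tables, which held 25746 genes. By role they are 8 regulators, 7 stress targets, 7 enzymes of amino acid synthesis and one-carbon metabolism, 4 amino acid transport genes and 8 tRNA synthetases. Of the 34, 33 passed the filter on low counts, and 11885 genes passed it in all. The gene left out was Gdf15, a secreted stress cytokine, which lay between 0 and 1.04 CPM, the count scaled to the library's size, over the libraries.

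The study grew bone marrow of C57BL/6 mice into eosinophils and measured polyadenylated RNA in 24 libraries, as 8 groups of 3. Stem cell factor and FLT3 ligand (100 ng/ml each) were given up to day 4 and interleukin-5 (IL-5, 10 ng/ml) afterwards, and dead cells were removed on day 13. All groups then stayed in IL-5 overnight, either with nothing added (called untreated here), with GM-CSF, a myeloid growth factor (20 ng/ml), or with interleukin-10 (IL-10), whose dose the labels do not state. Wild type had a group for each cytokine, for neither and for both, while cells labelled Csf2ra-/- (the GM-CSF receptor alpha chain) and cells labelled Irf5-/- (an interferon regulatory factor) were either untreated or given GM-CSF. The labels give neither the age of the mice nor how the alleles were made, and they speak of triplicates without naming separate animals or cultures. Every p-value below thus reflects variation between libraries alone, some of which may be technical. Replicate numbers below follow the order of deposit and only name libraries.

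Total counts were 6222979 to 18709153 per library. Irf5 itself went against its label: the 6 libraries labelled Irf5-/- held 1401 to 2027 CPM of it and the other 18 held 29.1 to 94.4 CPM, so every direction drawn from that label is one of the libraries labelled so. The 6 libraries labelled Csf2ra-/- held 28.02 to 40.7 CPM of Csf2ra and the other 18 held 41.1 to 83.8 CPM. All 12 eosinophil markers checked were above 0 in every library, with a summed level of 75479 to 106456 CPM. Markers of other cells were present too: monocyte and macrophage markers summed to 2098 to 2823 CPM, neutrophil markers to 1330 to 2323, erythroid and megakaryocyte markers to 921 to 1630, mast cell and basophil markers to 395 to 648, stromal and endothelial markers to 426 to 656, dendritic cell markers to 28.9 to 112 and T, B and NK cell markers to 2.25 to 3.84. In bulk RNA, fewer cells of a kind and less RNA per cell cannot be told apart.

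In the integrated stress response, kinases that sense lack of amino acids, misfolded protein, viral RNA or lack of heme phosphorylate the initiation factor eIF2. General translation then falls while translation of the transcription factor ATF4 rises, and ATF4, with C/EBP partners and the later factor CHOP (the product of Ddit3), switches on genes that make, import and charge amino acids. In immune cells this program also sets how much cystine is imported for glutathione, and it feeds into growth control through mTORC1. The mRNA level of Atf4 is only a partial measure of the pathway, since much of its control is on translation.

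ATF4 and C/EBP partners bind a composite element whose core, TGATGNAA (read on either strand, so also as its complement), was searched in the RefSeq promoter windows of GRCm38.p6, from 250 bases before to 50 after each start. Of the 34 genes, 27 had a window and 11 of these (40.7%) held the core in at least 1 window, beside 4.51% of 27025 genes and 3.97% of 32851 windows in the whole table. The 11 were Nupr1, Trib3, Chac1, Vldlr, Herpud1, Asns, Slc7a11, Gars, Aars, Tars and Yars. The match of Trib3 lay 15 bases after its start and that of Yars 4 bases after. Eif4ebp1, Aldh1l2, Cth, Slc7a5, Cars, Wars and Nars had no entry. The windows of Atf4, Ddit3, Cebpg, Phgdh and Psat1 did not hold these letters. A match is a description of the sequence and was not tested for binding.

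Shown are the stretches around the match in Chac1 and Asns, classical ATF4 targets, and in Tars and Slc7a11. Tars was called between untreated cells labelled Csf2ra-/- and wild type, though not under every alternative setting. Slc7a11 holds the core on both strands and was picked once its values were known. Each stretch runs 5′ to 3′ on the gene's strand, with the match in capitals. The stretches are chr2:119351004-119351101 (plus strand) for Chac1, chr6:7693225-7693277 (minus strand) for Asns, chr15:11399659-11399718 (minus strand) for Tars and chr3:50443614-50443724 (minus strand) for Slc7a11. All lie upstream of the RefSeq start, but the last 30 bases of the Asns stretch, 7 of the Tars stretch and 1 of the Slc7a11 stretch lie inside the gene models of the annotation used here.
Chac1: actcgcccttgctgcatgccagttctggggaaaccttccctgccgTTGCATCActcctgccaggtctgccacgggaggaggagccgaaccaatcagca
Asns: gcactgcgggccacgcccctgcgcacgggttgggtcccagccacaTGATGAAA
Tars: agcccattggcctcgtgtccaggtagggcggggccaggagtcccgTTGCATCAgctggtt
Slc7a11: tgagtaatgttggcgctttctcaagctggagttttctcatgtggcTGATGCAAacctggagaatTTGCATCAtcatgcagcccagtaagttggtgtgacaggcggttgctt

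Levels per kilobase were divided by all annotated exon bases of a gene, 2.36 kilobases in Atf4 and 13.92 in Slc7a11, which lowers genes with long exons. On this scale, Atf4 had the highest mean level of the 34 genes, at 232 CPM per kilobase over the 24 libraries. It was followed by Herpud1, which acts in the degradation of misfolded endoplasmic reticulum proteins (147), Ddit4, an inhibitor of mTORC1 (144), and Slc3a2, the heavy chain shared by several amino acid exchangers (101). Ddit3 lay at 33.2 and Trib3, a pseudokinase induced by CHOP, at 23.5 CPM per kilobase. The 8 synthetases lay between 5.495 (Cars) and 35.4 (Gars) on the same scale. At the low end were Chac1, which degrades glutathione (1.37), Aldh1l2, a mitochondrial folate enzyme (0.837), and Cth, which makes cysteine (0.513).

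**Figure D1:**
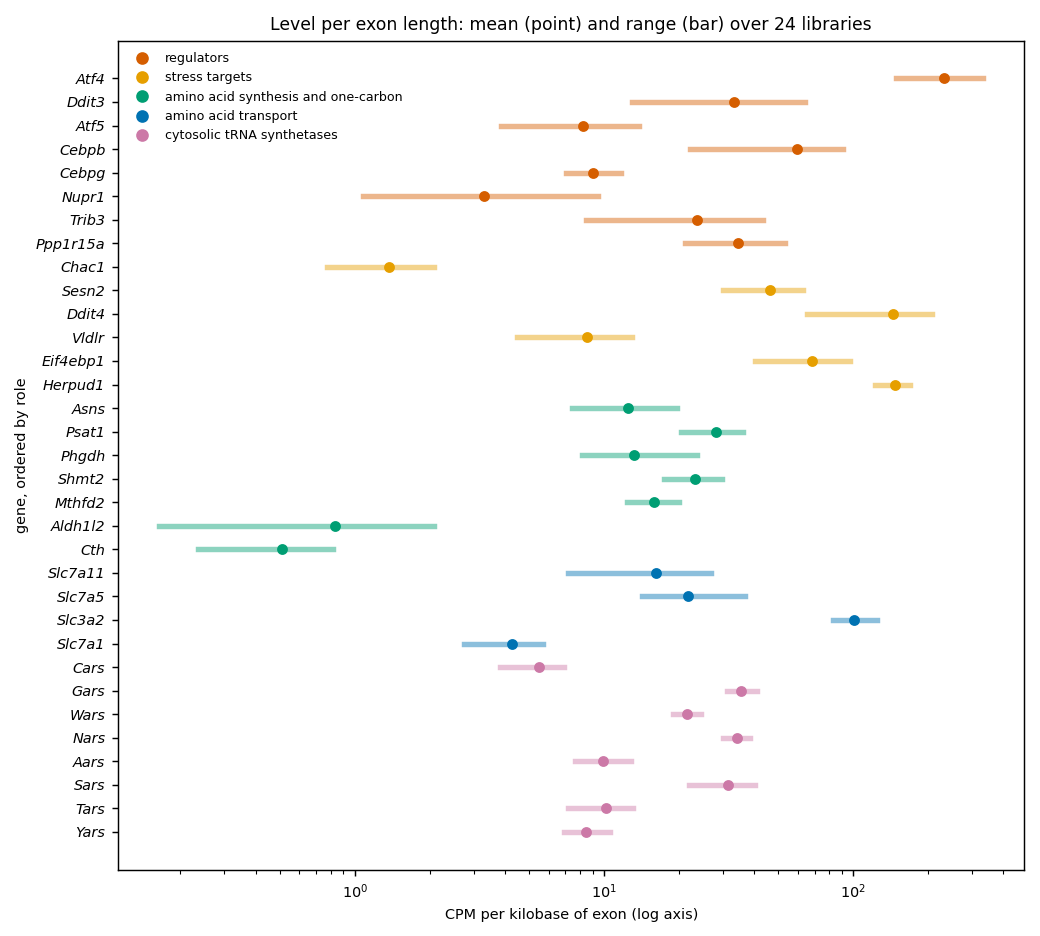
Mean level (points) and range (bars) over the 24 libraries of the 33 genes that passed the filter, in CPM per kilobase of exon on a log axis, grouped by role. Atf4 is highest at 232 and Cth lowest at 0.513, and the bar of Aldh1l2 is the longest, with its highest library 12.6 times its lowest.

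The regulators Ddit3, Trib3 and Atf4 did not sort the libraries by treatment. Instead, 11 libraries formed a low set and 13 a high set that cut across most groups. Ddit3 (ENSMUSG00000025408, chromosome 10, 127290774 to 127296288) codes for CHOP, the factor that couples lasting stress to cell death. In replicates 1, 2 and 3 its level was 57.8, 81.9 and 88.6 CPM in untreated wild type, 65.4, 34.5 and 100.2 with GM-CSF, 87.6, 88.7 and 81.0 with IL-10, and 69.5, 109.6 and 25.4 with both. In libraries labelled Irf5-/- it was 25.0, 36.6 and 28.9 CPM untreated and 72.1, 33.96 and 27.9 with GM-CSF, and in cells labelled Csf2ra-/- 27.003, 22.1 and 77.9 untreated and 22.6, 22.8 and 79.1 with GM-CSF. No library lay between 36.6 and 57.8 CPM. The 11 libraries below this gap were all 3 untreated ones labelled Irf5-/-, GM-CSF replicates 2 and 3 of that label, replicates 1 and 2 of both groups labelled Csf2ra-/-, wild-type GM-CSF replicate 2, and replicate 3 of wild type with both cytokines. Thus 5 of the 8 groups held libraries of both sets, while untreated and IL-10-treated wild type held only high ones. Most libraries of the low set carried the label Irf5-/- or Csf2ra-/-, and most wild-type libraries were in the high set. The symbol Ddit3 also belongs to a second, overlapping identifier with few counts, and adding its counts left the same 11 libraries lowest.

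Trib3 (ENSMUSG00000032715, chromosome 2, 152337422 to 152344032) repeated this order. Its values were 50.7, 76.1 and 79.7 CPM in untreated wild type, 62.3, 28.6 and 82.1 with GM-CSF, 73.7, 81.6 and 69.5 with IL-10, and 75.6, 92.4 and 23.6 with both. In libraries labelled Irf5-/- it lay at 22.2, 25.0 and 23.9 CPM untreated and at 76.8, 29.7 and 27.1 with GM-CSF, and in cells labelled Csf2ra-/- at 24.8, 19.4 and 57.6 untreated and 17.99, 23.5 and 56.9 with GM-CSF. The same 11 libraries lay at or below 29.7 CPM and the other 13 at or above 50.7, with none between.

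Atf4 (ENSMUSG00000042406, chromosome 15, 80255184 to 80257541) had the same 11 libraries lowest over a smaller range. It lay at 519, 637 and 739.8 CPM in untreated wild type, 572, 401 and 757 with GM-CSF, 659, 700.5 and 575 with IL-10, and 589, 782 and 369 with both. In libraries labelled Irf5-/- it was 432, 502 and 399 CPM untreated and 648, 437 and 408 with GM-CSF, and in cells labelled Csf2ra-/- 514, 348 and 724 untreated and 402, 377 and 614 with GM-CSF. The 2 sets met here without a clear gap: the highest of the 11 low libraries had 514 CPM and the lowest of the 13 others 519 CPM.

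Nupr1, a small chromatin protein induced by stress, lay at 6.33, 6.97 and 9.34 CPM in untreated wild type, 8.34, 5.70 and 15.8 with GM-CSF, 11.4, 11.9 and 8.43 with IL-10, and 13.1, 23.8 and 8.64 with both. Cells labelled Irf5-/- had 2.72, 5.52 and 3.72 CPM untreated and 9.64, 6.51 and 7.84 with GM-CSF, and in cells labelled Csf2ra-/- 3.33, 4.47 and 9.04 untreated and 4.27, 3.91 and 8.86 with GM-CSF. Of the 11 libraries low in Ddit3, 9 were among the 11 lowest in Nupr1, and the wild-type library with both cytokines that was highest in Ddit3 was highest here too.

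Cebpb, which codes for a C/EBP partner of ATF4, did not follow the order as closely. It lay at 88.1, 78.2 and 108 CPM in untreated wild type, 78.0, 105 and 137 with GM-CSF, 73.6, 101 and 66.9 with IL-10, and 86.9, 117 and 89.1 with both. The label Irf5-/- gave 75.2, 102 and 94.1 CPM untreated and 109, 79.8 and 61.1 with GM-CSF, and in cells labelled Csf2ra-/- 112, 33.2 and 121 untreated and 57.0, 73.6 and 108 with GM-CSF. All 8 groups overlapped, and 87.1% of its variance between libraries lay within groups. An exon of Tmem189 on the opposite strand overlaps 20.7% of its exon bases, and no source used here gives the strand setting of the counting, which makes its values uncertain.

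**Figure D2:**
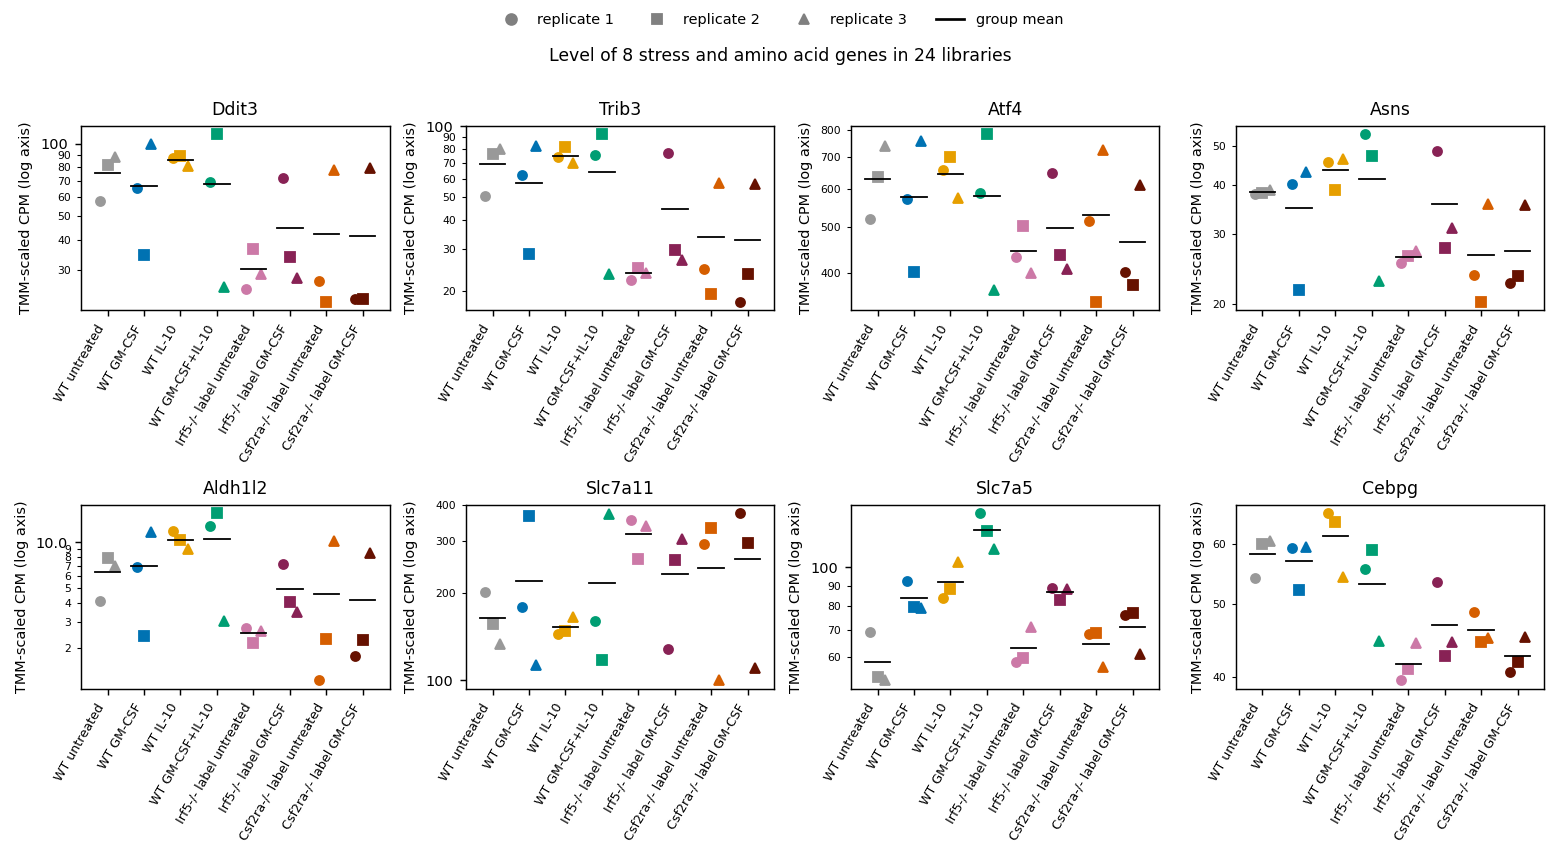
Level in CPM (log axis) of Ddit3, Trib3, Atf4, Asns, Aldh1l2, Slc7a11, Slc7a5 and Cebpg in each library of the 8 groups, with marker shape for the replicate and a line at the group mean. Ddit3 and Trib3 split into a low and a high set inside several groups, Slc7a11 shows the opposite order, and Slc7a5 is highest in wild type with both cytokines.

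Among the enzymes and stress targets, the same 11 libraries were lowest in Asns, Aldh1l2, Sesn2, Ddit4 and Vldlr, though not always across a clear gap. Asns (ENSMUSG00000029752, chromosome 6, 7675169 to 7693254) makes asparagine and is the classical readout of amino acid lack. It lay at 37.9, 38.0 and 38.8 CPM in untreated wild type, 40.2, 21.8 and 43.0 with GM-CSF, 45.5, 38.7 and 46.4 with IL-10, and 53.5, 47.3 and 22.9 with both. For the label Irf5-/- the values were 25.4, 26.4 and 27.2 CPM untreated and 48.7, 27.7 and 31.1 with GM-CSF, and in cells labelled Csf2ra-/- 23.7, 20.3 and 35.7 untreated and 22.6, 23.5 and 35.6 with GM-CSF. The same 11 libraries were again the lowest, at 20.3 to 31.1 CPM against 35.6 to 53.5 CPM.

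Aldh1l2 spread most. Its level was 4.11, 7.92 and 6.95 CPM in untreated wild type, 6.86, 2.41 and 11.6 with GM-CSF, 11.8, 10.4 and 8.95 with IL-10, and 12.7, 15.6 and 3.04 with both. Cells labelled Irf5-/- had 2.72, 2.18 and 2.61 CPM untreated and 7.15, 4.05 and 3.48 with GM-CSF, and in cells labelled Csf2ra-/- 1.23, 2.30 and 10.2 untreated and 1.78, 2.26 and 8.42 with GM-CSF. The highest of the 11 low libraries (4.05 CPM) and the lowest of the other 13 (4.11 CPM) met. A gene on the opposite strand, D10Wsu102e, overlaps 14.1% of its exon bases, which makes its values uncertain as well.

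Chac1, although a target of ATF4 and CHOP, did not share this order. It was barely counted, at 1.27 to 3.41 CPM, with 2.61, 1.81 and 2.09 in untreated wild type, 2.11, 2.30 and 2.97 with GM-CSF, 1.27, 1.80 and 2.32 with IL-10, and 3.40, 2.04 and 2.10 with both. The label Irf5-/- gave 1.76, 2.76 and 3.33 CPM untreated and 1.61, 1.59 and 3.41 with GM-CSF, and in cells labelled Csf2ra-/- 1.97, 1.35 and 2.54 untreated and 2.27, 2.41 and 1.85 with GM-CSF. Its groups all overlapped.

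Slc7a11 (ENSMUSG00000027737, chromosome 3, 49892526 to 50443614), the cystine importer that feeds glutathione synthesis, ran the other way. It lay at 202, 156 and 134 CPM in untreated wild type, 178, 367 and 113 with GM-CSF, 144, 148 and 165 with IL-10, and 159.9, 117 and 371 with both. For the label Irf5-/- the values were 356, 261 and 339.7 CPM untreated and 128, 259 and 307 with GM-CSF, and in cells labelled Csf2ra-/- 294, 334 and 100.1 untreated and 376, 296 and 111 with GM-CSF. The 11 libraries low in Ddit3 were the 11 highest in Slc7a11, at 259 to 376 CPM, and the other 13 lay at 100.1 to 202 CPM. The promoter windows of Slc7a11 and Asns, printed above, both hold the core, while the order of the libraries was opposite in the pair.

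The shared order can be counted over all genes. Besides Ddit3, 9 of the other genes had exactly the same 11 libraries lowest: Atf4, Atf5, Trib3, Sesn2, Ddit4, Vldlr, Asns, Aldh1l2 and Sars. Of all 11885 genes tested, 314 did so, and 102 had those 11 as their highest. With at least 10 of the 11 libraries lowest there were 12 of the 33 genes and 729 of all genes. With at least 10 highest there were 2 of the 33, Slc7a11 and Slc3a2, and 406 of all. The set was defined from Ddit3 itself, so these counts describe the libraries and test nothing.

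**Figure D3:**
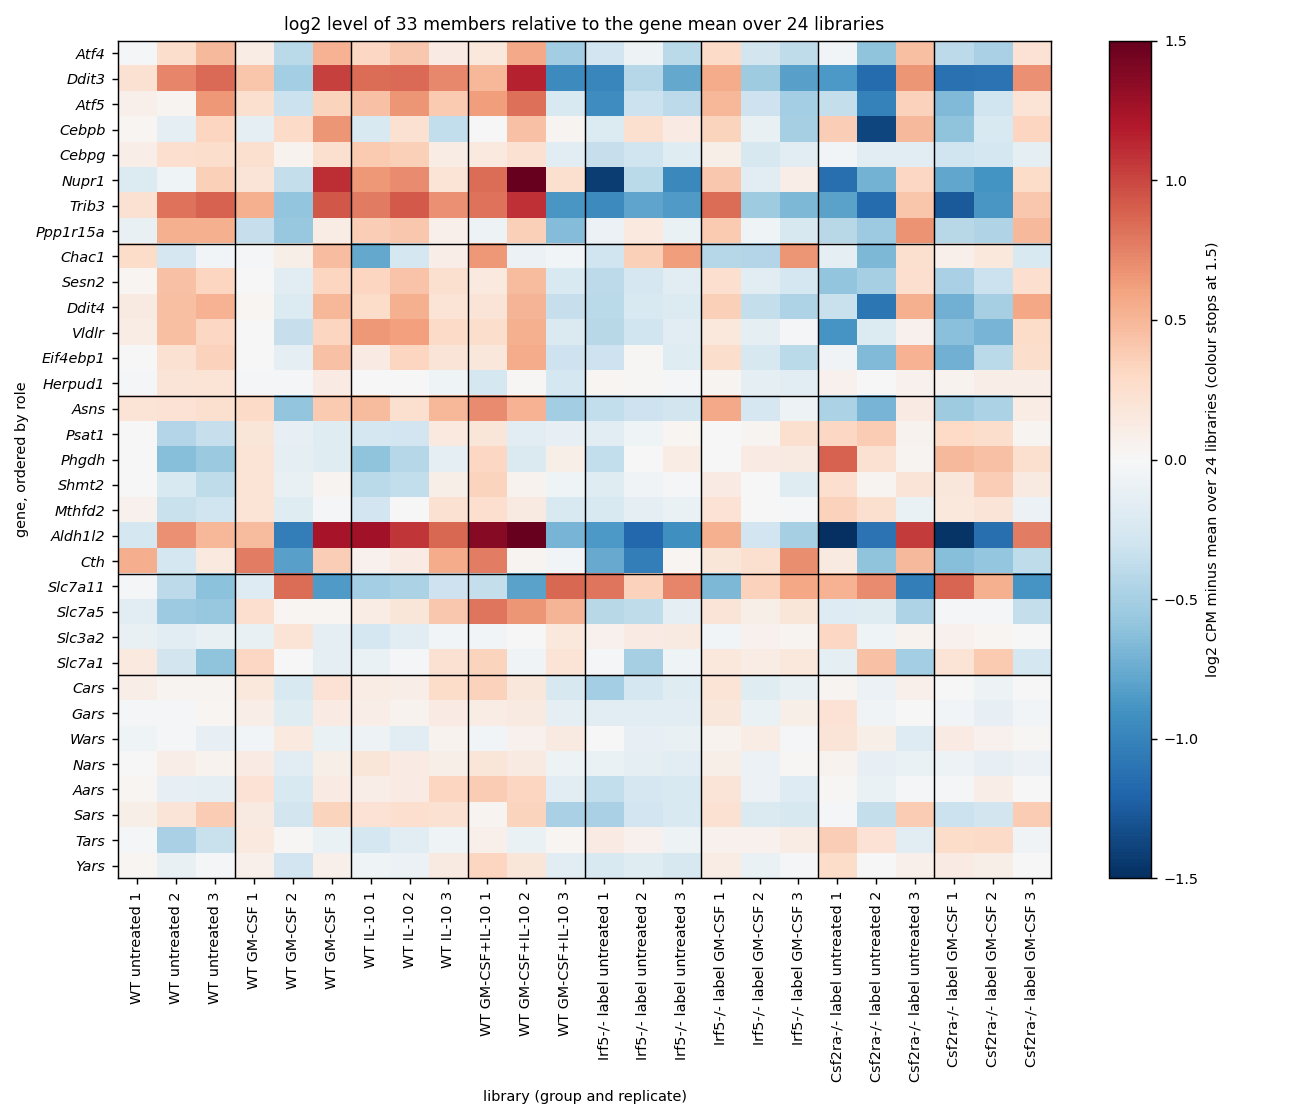
Log2 CPM minus the gene's mean over the 24 libraries, for the 33 genes (rows, by role) and 24 libraries (columns, by group), with colour stopping at 1.5 in either direction. The columns of wild-type GM-CSF replicate 2 and wild type with both cytokines replicate 3 are low in most regulators and high in Slc7a11, unlike their neighbours of the same group.

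Spread within groups was large for the regulators and small for the synthetases. The standard deviation (SD) of log2 CPM within groups, pooled over the 8 groups, had a median of 0.467 over the 8 regulators, 0.351 over the 6 stress targets tested, 0.266 over the 7 enzymes, 0.224 over the 4 transport genes and 0.154 over the 8 synthetases. Over all 33 genes the median was 0.291, beside 0.198 over all genes tested. Aldh1l2 (0.937), Ddit3 (0.748), Trib3 (0.708) and Slc7a11 (0.695) ranked 53, 113, 152 and 162 from the top among 11042 genes with a mean of at least 1 CPM. Nars (0.0918), which charges asparagine, and Herpud1 (0.0933) were the steadiest. Of the 33 genes, 12 were in the top 10% of genes by this SD.

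**Figure D4:**
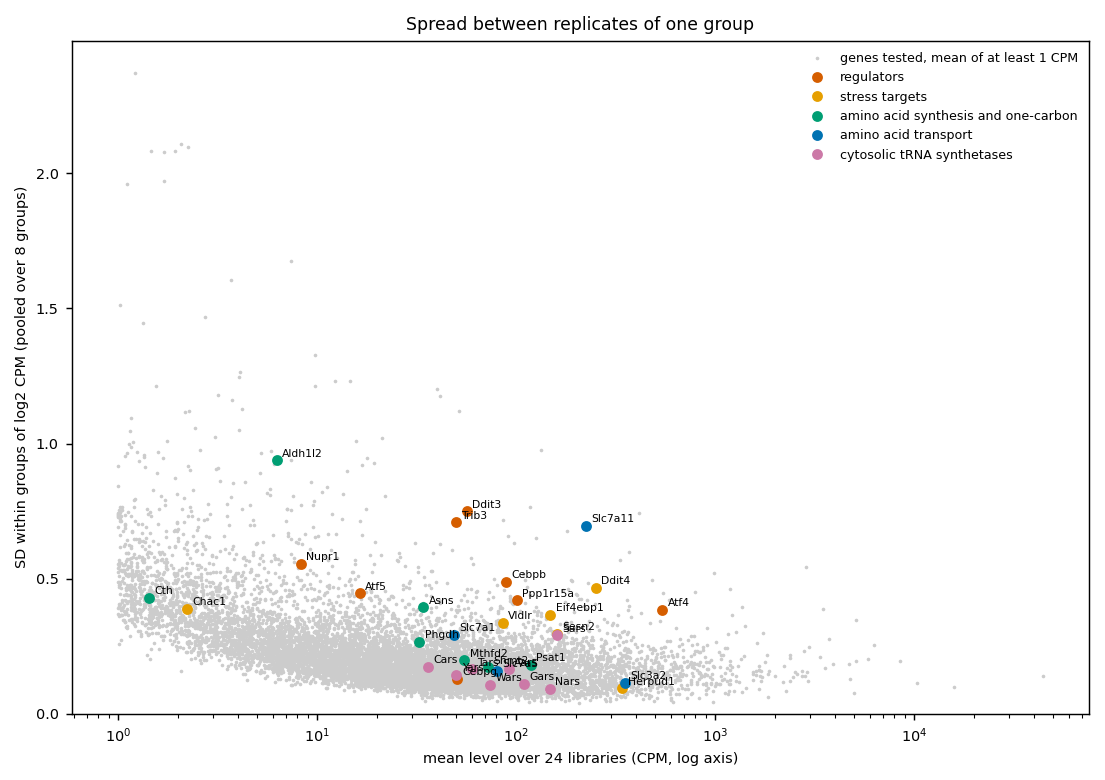
SD of log2 CPM within groups, pooled over the 8 groups, against mean CPM (log axis) for the 11042 genes with a mean of at least 1 CPM (grey), with the 33 genes coloured by role. Aldh1l2, Ddit3, Trib3 and Slc7a11 stand high, and most synthetases lie in the grey mass.

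Single libraries carried much of this spread, and 8 of the 24 were the lowest or the highest of their group in at least 18 of the 33 genes. Wild-type GM-CSF replicate 2 was lowest in 22 (66.7%), beside 37.3% of all genes, and replicate 3 highest in 19 (57.6%), beside 35.7%. Replicate 3 of wild type with both cytokines was lowest in 24 (72.7%), beside 39.9%. In the label Irf5-/-, untreated replicate 1 was lowest in 21 (63.6%), beside 34.6%, and GM-CSF replicate 1 highest in 24 (72.7%), beside 39.2%. In the label Csf2ra-/-, untreated replicate 2 was lowest in 21 (63.6%), beside 36.3%, untreated replicate 3 highest in 18 (54.5%), beside 30.2%, and GM-CSF replicate 3 highest in 19 (57.6%), beside 39.5%. The first component of deviations within groups, over 9235 genes that exclude the 34, took 45.4% of the variance. The scores of these 8 libraries on it were -0.234, 0.257, -0.318, -0.113, 0.231, -0.347, 0.404 and 0.403, in the order given, so that untreated replicate 1 labelled Irf5-/- lay closer to 0 than the other 7. Libraries outside the 8 scored in the same range, such as replicate 2 of wild type with both cytokines (0.263) and GM-CSF replicate 1 labelled Csf2ra-/- (-0.221).

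Other measures moved with this order only in part of the libraries. In wild type, the summed level of 4 Y-linked genes fell into 6 libraries at 45.8 to 59.9 CPM and 6 at 174 to 186 CPM, and each of the 4 wild-type groups held both kinds. The 6 libraries with the lower sum had Ddit3 at 81.9 to 109.6 CPM, Atf4 at 637 to 782 CPM and Slc7a11 at 113 to 156 CPM. The 6 with the higher sum had Ddit3 at 25.4 to 81.0 CPM and Atf4 at 369 to 589 CPM. Slc7a11 lay at 159.9 to 371 CPM in them. For Ddit3 and Slc7a11 the ranges of the kinds nearly met. Of the libraries with the higher sum, GM-CSF replicate 2 and replicate 3 with both cytokines were in the low set by Ddit3. The others were in the high set. Trib3 (73.7 to 92.4 CPM against 23.6 to 75.6), Aldh1l2 (6.95 to 15.6 against 2.41 to 12.7) and Slc7a5 (52.5 to 123 against 69.1 to 136) overlapped. The share of all genes that separates these kinds was not counted. The sum of 13 cell cycle genes was 1142 to 1362 CPM in the first kind and 1508 to 1746 CPM in the second. In libraries labelled Csf2ra-/- that sum was 2068, 2354 and 1579 CPM untreated and 2217, 2165 and 1578 with GM-CSF, lowest in replicate 3 of each, where Ddit3 was highest, while the Y-linked sum stayed at 152 to 184 CPM in all 6. In libraries labelled Irf5-/- the Y-linked sum was 179, 12.2 and 39.2 CPM untreated and 165, 13.4 and 44.2 with GM-CSF, and it did not follow Ddit3. The labels do not say whether libraries of different treatments came from the same culture, and the tests treat all libraries as independent. The part of these measures in the order of the stress genes was not tested.

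GM-CSF changed none of the 33 genes past the threshold in wild type. Differences were tested in all 11885 genes with edgeR's quasi-likelihood test and Benjamini-Hochberg adjustment, and a gene was called at an adjusted p under 0.05. For GM-CSF against untreated wild type 0 of 33 were called, where 0.555% of all genes were. At an unadjusted p under 0.05 there were 2, DESeq2 called 1 and limma-voom 0. The median log2 difference was 0.03 over the 33 genes, with a range of -0.06 to 0.12 over the alternatives and so no fixed sign, and -0.01 over all genes tested. The largest rises were those of Slc7a5 (log2 difference 0.52, standard error (SE) 0.13) and Slc7a11 (0.42, SE 0.52), and the largest falls were in Ppp1r15a, a phosphatase subunit that restores translation (-0.59, SE 0.32), and Vldlr, a lipoprotein receptor (-0.27, SE 0.25). Without overlap, Slc7a5 alone lay above untreated wild type, where 6.9% of all genes did, and none of the 33 lay below, where 5.92% did. With IL-10 present, GM-CSF again gave 0 called of 33 (0.858% of all genes), 3 at an unadjusted p under 0.05, and 0 by DESeq2 and limma-voom. There too Slc7a5 alone lay above without overlap (9.24% of all genes did) and none lay below (8.05%).

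Slc7a5 (ENSMUSG00000040010, chromosome 8, 121881150 to 121907694) had the smallest p-value of the 33 in the joint test of the 8 groups. It codes for the light chain of LAT1, which imports leucine and other large neutral amino acids and thereby feeds mTORC1. Its level was 69.1, 53.4 and 52.5 CPM in untreated wild type, 92.7, 79.5 and 79.3 with GM-CSF, 83.8, 88.5 and 103.3 with IL-10, and 136, 123 and 111 with both. Cells labelled Irf5-/- had 58.4, 59.8 and 71.0 CPM untreated and 88.7, 83.0 and 88.3 with GM-CSF, and in cells labelled Csf2ra-/- 68.2, 68.8 and 56.6 untreated and 76.0, 76.9 and 60.9 with GM-CSF. All libraries with both cytokines lay above all others. Each cytokine alone lay above untreated wild type without overlap, as did GM-CSF above untreated in the label Irf5-/-, while the 2 groups labelled Csf2ra-/- overlapped. Only 12.9% of its variance lay within groups, the smallest share among the genes with values given in every library.

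Group means lay further apart in genes with more spread, such as Aldh1l2 (2.50 to 10.4 CPM) and Nupr1 (3.99 to 15.2 CPM). The group means of Slc7a5 were 58.3 ± 9.33 CPM (SD, n = 3) untreated, 83.8 ± 7.66 with GM-CSF, 91.9 ± 10.2 with IL-10 and 123 ± 12.6 with both in wild type, each over 3 libraries. The test of any difference among the 8 groups gave an edgeR adjusted p of 2.21e-05, and Slc7a5 was called under all 31 alternative settings run for it. Single steps did not pass the threshold: the edgeR adjusted p was 0.0681 for GM-CSF in wild type (0.0104 to 0.445 over 14 alternatives) and 0.0582 for IL-10 in wild type (log2 difference 0.65, SE 0.13; 0.000852 to 0.405 over 14 alternatives). Adding IL-10 to GM-CSF gave an edgeR adjusted p of 0.154 (0.0124 to 0.668 over 14 alternatives). Adding GM-CSF to IL-10 gave a log2 difference of 0.43 (SE 0.12), which was not called. In the label Csf2ra-/- GM-CSF gave 0.15 (SE 0.13), and the test that this differed from wild type gave a difference of -0.38 (SE 0.18) and an edgeR adjusted p of 0.843. The joint test covers all 8 groups and does not test an order among the wild-type ones, where GM-CSF alone and IL-10 alone overlapped.

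IL-10 changed none of the 33 genes past the threshold either. Without GM-CSF 0 of 33 were called (0.0505% of all genes), 1 at an unadjusted p under 0.05, 1 by DESeq2 and 0 by limma-voom. Of the 33, 5 lay above untreated wild type without overlap, where 7.34% of all genes did: Slc7a5, Aldh1l2 and the synthetases Cars, Gars and Aars. None lay below, where 7.72% of all genes did. On top of GM-CSF, edgeR called 0 of 33 (0.0505% of all genes), with 2 at an unadjusted p under 0.05, 1 by DESeq2 and 0 by limma-voom. Of the 33, only Slc7a5 then lay above GM-CSF alone without overlap (3.47% of all genes did) and none lay below (3.14%). The cytokine comparisons in wild type share libraries with each other, so they are not independent.

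Untreated cells labelled Irf5-/- lay low in the stress genes, and the calls depended on how the spread was estimated. Against untreated wild type, edgeR called 0 of 33 (0.0337% of all genes), 11 had an unadjusted p under 0.05, DESeq2 called 1 and limma-voom 0. The median log2 difference was -0.21 over the 33 genes and 0.00 over all genes tested, with a median of -0.64 over the regulators, -0.44 over the stress targets and -0.18 over the synthetases. Of the 33, 17 lay below wild type without overlap, where 14.6% of all genes did, and 2 above, Slc7a11 and Slc3a2, where 11.5% did. The 17 held 6 of the 8 regulators (Atf4, Ddit3, Atf5, Cebpg, Nupr1 and Trib3) and 6 of the 8 synthetases.

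In that comparison Trib3 differed by -1.53 (SE 0.56, edgeR adjusted p 0.303) on the log2 scale and Ddit3 by -1.32 (SE 0.59, edgeR adjusted p 0.337). Slc7a11 differed by 0.96 (SE 0.52, edgeR adjusted p 0.407). Fitted on the 6 libraries of the 2 groups alone, edgeR called 12 of the 33, Slc7a11 higher and 11 lower, where 551 of all genes were called. With all 24 libraries in the fit, the spread also reflects the groups that hold both low and high libraries. With GM-CSF in both, edgeR called 0 of 33 (0.0337% of all genes), 1 had an unadjusted p under 0.05, neither DESeq2 nor limma-voom called any, and no gene of the 33 separated the groups, where 3.25% of all genes lay above and 3.4% below.

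Within the label Irf5-/-, GM-CSF gave 0 called of 33 by edgeR (0.353% of all genes), 4 at an unadjusted p under 0.05 and 0 by DESeq2 and limma-voom. The median log2 difference was 0.22 over the 33 and 0.01 over all genes tested. Of the 33, 14 lay above untreated without overlap, where 8.72% of all genes did, among them Trib3, Asns, Slc7a5 and 5 synthetases. Slc3a2 lay below, where 7.19% did. In Trib3 and Asns, replicate 1 with GM-CSF lay far above the other libraries of this label, as the values above show. The test that GM-CSF acted differently in this label than in wild type called 0 of 33 (0.0% of all genes), with 0 at an unadjusted p under 0.05 and 0 by DESeq2 and limma-voom.

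In untreated cells labelled Csf2ra-/-, edgeR called 3 of the 33 genes against wild type, all higher: Phgdh, Psat1 and Tars. This was 9.09% of the 33, where 10.8% of all genes were called (5.52% higher and 5.32% lower), so the share was near that of all genes. Phgdh and Psat1 code for the enzymes of the first 2 steps from glycolysis to serine, and Tars charges threonine. The median log2 difference was -0.10 over the 33 genes and 0.00 over all genes tested. It was 0.01 without replicate 2 labelled Csf2ra-/- and -0.32 without replicate 3. By role, the medians were 0.35 over the enzymes and -0.36 over the regulators. Without overlap, 4 of the 33 lay above wild type (Psat1, Phgdh, Shmt2 and Slc3a2), where 10.3% of all genes did, and 3 below (Cebpg, Vldlr and Asns), where 10.9% did.

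Phgdh (ENSMUSG00000053398, chromosome 3, 98313170 to 98339990) lay at 31.5, 20.3 and 21.5 CPM in untreated wild type and at 58.6, 37.1 and 32.5 in untreated cells labelled Csf2ra-/-. It lay at 36.4, 28.7 and 27.99 CPM with GM-CSF, 20.9, 23.5 and 28.7 with IL-10 and 39.2, 27.3 and 33.8 with both in wild type. The groups labelled Irf5-/- had 24.5, 31.9 and 34.3 CPM untreated and 31.8, 34.5 and 34.8 with GM-CSF, and the GM-CSF group labelled Csf2ra-/- had 44.5, 43.2 and 37.4. All 6 libraries labelled Csf2ra-/- lay above all untreated wild-type ones. The untreated difference was 0.79 (SE 0.20) on the log2 scale, with an edgeR adjusted p of 0.0171 and a range of 0.00300 to 0.180 over 14 alternatives, 10 of which called it.

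Psat1 (ENSMUSG00000024640, chromosome 19, 15904678 to 15947337) lay at 118, 86.9 and 92.6 CPM in untreated wild type and at 146, 153 and 122 in untreated cells labelled Csf2ra-/-, without overlap. It lay at 133, 109 and 104 CPM with GM-CSF, 98.2, 96.8 and 130.1 with IL-10 and 134, 104 and 109 with both in wild type. The groups labelled Irf5-/- had 105, 113 and 119.9 CPM untreated and 118, 121 and 139 with GM-CSF, and the GM-CSF group labelled Csf2ra-/- had 145, 141 and 121, which overlapped wild type with GM-CSF. The untreated difference was 0.50 (SE 0.14), with an edgeR adjusted p of 0.0291 and a range of 0.00940 to 0.201 over 14 alternatives, 9 of which called it.

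Tars (ENSMUSG00000022241, chromosome 15, 11382301 to 11399665) lay at 58.3, 42.3 and 47.2 CPM in untreated wild type and at 76.8, 69.3 and 52.7 in untreated cells labelled Csf2ra-/-, which overlapped. It lay at 65.6, 60.2 and 55.5 CPM with GM-CSF, 49.6, 53.2 and 56.7 with IL-10 and 62.4, 55.7 and 60.6 with both in wild type. The groups labelled Irf5-/- had 64.6, 62.1 and 56.3 CPM untreated and 62.0, 62.3 and 64.2 with GM-CSF, and the GM-CSF group labelled Csf2ra-/- had 72.2, 72.6 and 57.2. The untreated difference was 0.42 (SE 0.13), with an edgeR adjusted p of 0.0413 and a range of 0.00691 to 0.303 over 14 alternatives, 7 of which called it.

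The fit on the 2 groups alone called none of the 33, and single libraries decided how many were called in this comparison. Leaving out wild-type untreated replicate 2 or 3, or replicate 1 of the untreated group labelled Csf2ra-/-, edgeR called 0. Leaving out wild-type untreated replicate 1 it called 5, and leaving out replicate 2 labelled Csf2ra-/- it called 4. Leaving out replicate 3 labelled Csf2ra-/-, the library high in Ddit3 and low in cell cycle genes, it called 6. These then included 2 lower genes: Sesn2, a leucine sensor (-0.81, edgeR adjusted p 0.0165), and Ddit4 (-1.04, edgeR adjusted p 0.0495). Of 13 cell cycle genes, 10 were called higher in this comparison, with a median log2 difference of 0.61, while 11 of 16 monocyte and macrophage markers were called lower (median -1.96), 5 of 13 neutrophil markers (median -0.58) and 3 of 6 dendritic cell markers (median -1.18). The summed monocyte and macrophage level differed much less than that median, at 2166 to 2612 CPM in the untreated label and 2639 to 2713 CPM in untreated wild type. The summed neutrophil level was 1330 to 1597 CPM in the 6 libraries labelled Csf2ra-/- and 1706 to 2323 CPM in the other 18. Other sums went the other way. The erythroid and megakaryocyte sum was 1407 to 1630 CPM in those 6 and 921 to 1313 CPM in the other 18. The mast cell and basophil sum was 493 to 648 CPM against 395 to 536 CPM, which overlapped. The eosinophil sum was 86361 to 106456 CPM in the untreated label and 75479 to 80783 CPM in untreated wild type. The Y-linked sum was 175, 56.9 and 50.7 CPM in untreated wild type and 162, 181 and 165 CPM in the untreated label. Wild-type replicate 1, with the higher sum, was also highest of its group in Phgdh, Psat1 and Tars. With that sum as a covariate, Phgdh stayed called, but Psat1 (edgeR adjusted p 0.0638) and Tars (edgeR adjusted p 0.0848) were not. The part of these marker differences and of the Y-linked difference in the higher Phgdh, Psat1 and Tars was not tested.

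Cebpg, which codes for a C/EBP partner of ATF4, was lower in cells labelled Csf2ra-/- than in wild type when both had GM-CSF. Cebpg (ENSMUSG00000056216, chromosome 7, 35046422 to 35056573) lay at 59.2, 52.2 and 59.4 CPM in wild type with GM-CSF and at 40.7, 41.9 and 45.3 in the GM-CSF group labelled Csf2ra-/-. It lay at 54.0, 59.9 and 60.5 CPM untreated, 65.9, 64.1 and 54.2 with IL-10 and 55.6, 58.9 and 44.7 with both in wild type. The untreated group labelled Csf2ra-/- had 48.8, 44.6 and 45.1 CPM, and the groups labelled Irf5-/- had 39.7, 41.0 and 44.4 untreated and 53.5, 42.7 and 44.6 with GM-CSF. Both groups labelled Csf2ra-/- lay below wild type of the same treatment without overlap, as did the untreated group labelled Irf5-/-. Untreated, the difference for the label Csf2ra-/- had an edgeR adjusted p of 0.0527. Its range was 0.0387 to 0.281 over 14 alternatives, 2 of which called it. The difference with GM-CSF was -0.42 (SE 0.11), with an edgeR adjusted p of 0.0316 and a range of 0.0104 to 0.148 over 14 alternatives, 8 of which called it. It was not called without wild-type GM-CSF replicate 1 or 3, or without replicate 1 or 2 labelled Csf2ra-/-. It was the 1 gene of 33 called there, where 3.79% of all genes were (2.89% lower and 0.909% higher), so the share was near that of all genes. Cebpg and Slc7a5 lay below wild type with GM-CSF without overlap, as 10.1% of all genes did. Phgdh was 0.42 (SE 0.20) higher in this comparison and lay above wild type without overlap, as 8.07% of all genes did, but was not called.

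GM-CSF gave the cells labelled Csf2ra-/- 0 called of 33 by edgeR (0.0% of all genes), 0 at an unadjusted p under 0.05 and 0 by DESeq2 and limma-voom. No gene of the 33 separated these groups, where 1.92% of all genes lay above and 2.0% below. The test that GM-CSF acted differently there than in wild type gave 0 of 33 (0.0589% of all genes), 1 at an unadjusted p under 0.05, which was Slc7a5, and 0 by DESeq2 and limma-voom. The test that IL-10 altered the GM-CSF difference gave 0 of 33 (0.0% of all genes), 0 at an unadjusted p under 0.05 and 0 by DESeq2 and limma-voom. The comparisons of both untreated labels with wild type use the same 3 untreated wild-type libraries, which also serve as controls for both cytokines.

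**Figure D5:**
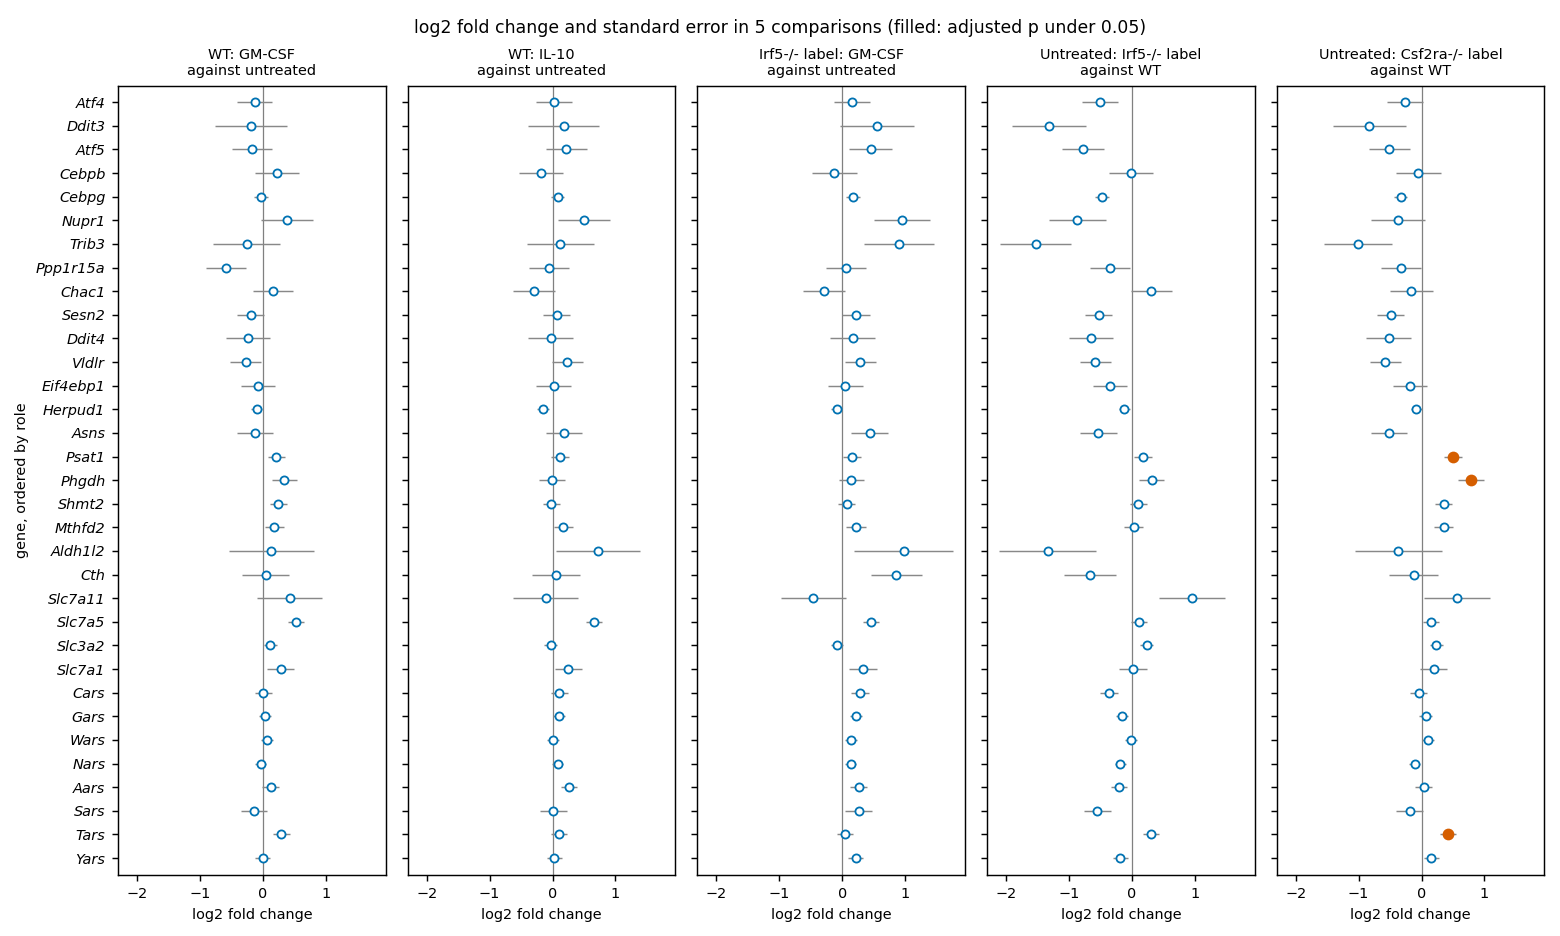
Log2 difference with its SE for the 33 genes in 5 comparisons, with filled points where the edgeR adjusted p was under 0.05. The filled points are Phgdh, Psat1 and Tars in untreated cells labelled Csf2ra-/- against wild type, and the bars of Aldh1l2, Ddit3, Trib3 and Slc7a11 are wide.

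Over all 8 groups, the joint test called 3 of 33 genes, Slc7a5, Cebpg and Phgdh, where 12.3% of all genes were called. At an unadjusted p under 0.05 there were 9, DESeq2 called 7 and limma-voom 3. Cebpg had an edgeR adjusted p of 0.00302 and was called under all 31 alternatives, and Phgdh had an edgeR adjusted p of 0.0320 and was called under 24 of 31. Ddit3 and Trib3, the regulators with the largest spread within groups, were not called in any comparison of the fit on all 24 libraries.

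The wider pathway was read through 8 lists of other genes. In wild type, edgeR called none of their tested genes for GM-CSF or IL-10, whether or not the other cytokine was present. The same was true of GM-CSF in both labels and of both comparisons of the label Irf5-/- with wild type. At an unadjusted p under 0.05, each list held 0 to 4 genes for GM-CSF in wild type and 1 to 6 for the untreated label Irf5-/-. In untreated cells labelled Csf2ra-/- against wild type, where 5.52% of all genes were called higher and 5.32% lower, 4 of 20 genes of the endoplasmic reticulum unfolded protein response were called higher, such as the chaperone Calr (0.67, SE 0.13) and Sdf2l1 (0.68, SE 0.15). So were 3 of 15 other cytosolic synthetase genes, Hars (0.57, SE 0.16), Lars (0.46, SE 0.13) and Kars (0.33, SE 0.10). Of 23 other amino acid and one-carbon enzymes, 3 were called higher, including Psph, the last enzyme of serine synthesis (0.59, SE 0.18), and Tyms, a thymidylate enzyme that is also on the cell cycle list (0.91, SE 0.20). Of 13 other amino acid transporters, 3 were called lower, led by the arginine carrier Slc7a2 (-2.08, SE 0.53). Of 18 genes for the eIF2 kinases, eIF2 and its phosphatases, 1 was called, Eif2b3, a subunit of the exchange factor eIF2B (0.68, SE 0.18). None of 17 mitochondrial synthetase genes and none of 18 genes of amino acid and mTORC1 sensing was called, with 3 and 1 at an unadjusted p under 0.05. No list was tested as a whole. The joint test of the 8 groups, which called 12.3% of all genes, called 9 of 20 unfolded protein response genes: Pdia4, Dnajb9, Calr, Hspa5, Edem1, Ern1, Sdf2l1, Atf6 and Creld2. It also called 3 of 13 other transporters (Slc7a2, Slc1a5 and Slc6a9), 2 of 23 other enzymes (Ass1 and Tyms), 1 of 18 other ATF4 and CHOP targets (Atf3), 1 of 15 other synthetases (Eprs) and 1 of 18 sensing genes (Nprl3). None of the eIF2 list (2 at an unadjusted p under 0.05) and none of the mitochondrial synthetases (4) was called by it.

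Atf3, a stress factor induced by ATF4, stood out among 18 other ATF4 and CHOP targets. It lay at 19.7 ± 0.788 CPM (SD, n = 3) in untreated wild type and 6.48 ± 1.95 CPM in untreated cells labelled Csf2ra-/-, a log2 difference of -1.60 (SE 0.26) with an edgeR adjusted p of 0.000721. With GM-CSF it lay at 19.7 ± 5.35 CPM in wild type and 6.28 ± 1.15 CPM in the label, a log2 difference of -1.63 (SE 0.25) with an edgeR adjusted p of 0.000302. The other gene of that list called when untreated was Pmaip1, a BH3-only death gene (0.36, SE 0.11). With GM-CSF in both genotypes, Dnajb9 (-0.44, SE 0.11), Slc7a2 (-2.06, SE 0.54) and Ass1, which makes argininosuccinate (-1.26, SE 0.32), were called lower besides Atf3.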

How the data were processed

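Each deposited file gives a whole-number count of reads for every Ensembl gene of a library, per the file headers. Per the submitters' processing notes, the authors used STAR, featureCounts and the build GRCm38.p6, with no versions stated. The libraries came from a stranded kit, per the labels' protocols, and the strand setting of the counting is not given in the sources used here.

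Counts of 24 libraries (8 groups of 3) were scaled by TMM (factors 0.939 to 1.03) in edgeR 4.0.16 on R 4.3.3 and filtered with filterByExpr. A quasi-likelihood model with 8 group means gave 14 comparisons, adjusted over 11885 genes. The common biological coefficient of variation was 14.1%. CPM are TMM-scaled, and levels per kilobase use the exon length of each gene in the GRCm38 annotation, which also gave the symbols and coordinates. None of the 24 pairs of replicates was identical, and every pair differed by more than counting noise (chi-square per degree of freedom of at least 3.49). The fit was tested on simulated data. Alternatives were limma 3.58.1 (voom), DESeq2 1.42.0, other scaling, filters and covariates, and leaving out each library. Figures used Python 3.11.15. Identifiers without a symbol (111) held 0.0385% of the counts.

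The 34 genes and the lists were chosen with earlier results of these data known. Values in every library are given for Atf4, Ddit3, Trib3, Asns and Chac1, for genes called in any comparison, and for the 6 with the largest spread within groups. In each comparison the 2 largest rises and falls may be named besides. Of the genes in the 8 pathway lists, 1 was not matched. Genes outside the 34 are named where called.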

Additional observations from a re-analysis of the deposited data

How the results depend on the processing

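The counts of the 33 genes called moved by more than 1.5 times in the settings below. DESeq2 called 1 for GM-CSF in wild type, 1 for IL-10 without GM-CSF, 1 for IL-10 with GM-CSF, 1 for the label Irf5-/- against wild type untreated and 7 for any difference among the 8 groups. DESeq2 size factors in edgeR gave 1 for IL-10 without GM-CSF and moved the median of all genes by at most 0.013 (log2). With the Y-linked sum as a covariate, edgeR called 1 for IL-10 without GM-CSF and 1 for the label Csf2ra-/- untreated. Fitted on the groups compared alone, it called 1 for IL-10 without GM-CSF, 0 and 0 for the label Csf2ra-/- untreated and with GM-CSF, and 12 for the label Irf5-/- untreated. Without a filter it called 0 for the label Csf2ra-/- with GM-CSF. The cause was not tested.

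Leaving out each library in turn gave 0 to 1 for GM-CSF in wild type and for IL-10 without GM-CSF, 0 to 6 for the label Csf2ra-/- untreated, 0 to 1 with GM-CSF and 2 to 6 for any difference. The other 9 comparisons stayed at 0. The 1 call for each cytokine in wild type came without untreated replicate 1. Limma-voom, the fit without robust estimation and the filter at a mean of 5 CPM moved none of the 14 counts by that much. No paired analysis was run, because no label pairs libraries of different groups. The numbers in the titles never repeat between groups, which does not show that cultures or animals were separate. The median log2 difference over the 33 genes turned sign under some alternative for GM-CSF in wild type (-0.06 to 0.12), for GM-CSF with IL-10 (-0.09 to 0.14), for IL-10 with GM-CSF (-0.02 to 0.20), for GM-CSF in the label Csf2ra-/- (-0.14 to 0.08), for that label untreated (-0.32 to 0.01), for GM-CSF in the label Csf2ra-/- minus wild type (-0.17 to 0.02), for GM-CSF with IL-10 minus without (-0.13 to 0.12) and for the label Irf5-/- with GM-CSF (-0.19 to 0.00). It kept its sign for the untreated label Irf5-/- (-0.24 to -0.18) and for IL-10 without GM-CSF (0.05 to 0.09). The sign also held for GM-CSF in the label Irf5-/- (0.10 to 0.26) and for GM-CSF in that label minus wild type (0.09 to 0.26). The same was true of the label Csf2ra-/- against wild type with GM-CSF (-0.21 to -0.04). Genes near 1 CPM, such as Chac1, rest on few reads, which limits what can be seen in them.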
